A study of Mus musculus with 6 samples.

Results

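The globin genes of the mouse alpha and beta clusters, embryonic and adult, were followed in fetal liver erythroblasts cultured with or without added cholesterol. The set was defined by gene symbol and held 10 genes, namely Hba-a1, Hba-a2 and Hba-x of the alpha cluster, Hbb-bs, Hbb-bt, Hbb-b1, Hbb-b2, Hbb-y and Hbb-bh1 of the beta cluster, and the alpha globin chaperone gene Ahsp. Of these, 9 were among the 17463 genes of the table and Ahsp was not analysed here. All 9 passed the filter on low counts, which kept 11277 genes.

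Cells came from the fetal liver of C57BL/6J mice at mid-gestation, an organ that makes most red cells of the fetus. Erythroblasts lacking TER119, a surface marker that red cell precursors gain as they mature, were isolated and grown with erythropoietin (Epo), on which their maturation depends, for 30 h. The 3 cholesterol samples received 40 µM cholesterol and the 3 control samples did not. The labels call the controls untreated, while a legend of the study calls them vehicle-treated, and the study's methods add that TER119+ cells were sorted after the culture, so both groups hold cells that had passed that gate. Samples are numbered 1 to 3 in each group. The labels do not say whether the samples of a group came from separate cultures or animals. A legend of the study gives independent experiments for the values it shows as means, without saying whether the sequenced samples are meant, so p-values are taken to measure only the spread between these samples, which may be technical.

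Hemoglobin carries oxygen as a tetramer of alpha-like and beta-like chains, each holding a heme group. In each cluster the embryonic genes lie upstream of the adult genes. Primitive red cells of the yolk sac express the embryonic genes Hba-x (zeta), Hbb-y (epsilon y) and Hbb-bh1 (beta h1), and definitive red cells of the fetal liver and bone marrow express the adult genes. Free alpha chains are harmful to red cell precursors, and the AHSP protein binds them, which is why the balance of alpha and beta chains is followed in this field. The study asked whether SREBP2, the sterol-sensing transcription factor encoded by Srebf2, acts on globin genes through NFE2, an erythroid factor that binds their enhancers. It did so with SREBP2 knockdown and overexpression, a promoter reporter and chromatin binding. In the present samples the study read ribosome biogenesis, cell cycle and sterol synthesis genes. Here these samples show the globin genes when sterol is plentiful.

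In RefSeq on GRCm38.p6, the build the labels name, the alpha cluster genes lie on the plus strand of chromosome 11, with Hba-x at 32276600 to 32278116, Hba-a1 at 32283672 to 32284486 and Hba-a2 at 32296492 to 32297310. The beta cluster genes lie on the minus strand of chromosome 7, with Hbb-bt at 103812524 to 103813923, Hbb-bs at 103826523 to 103827928, Hbb-bh1 at 103841638 to 103843162 and Hbb-y at 103851754 to 103853207. Hbb-b1 and Hbb-b2 belong to another beta globin haplotype than the one C57BL/6J carries, and have no position on the reference chromosome. Oligo(dT)-selected RNA was sequenced, so the values count spliced transcripts of the exons of these genes.

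The copies of a cluster are close in sequence, which bears on how far each can be measured apart from its neighbour. The 110 bases before the transcription start are shown for the 6 members with an entry in the RefSeq promoter table, so that the near-identical alpha pair can be set beside the more divergent beta pair and the embryonic genes. Capitals mark matches on either strand to core motifs of globin promoters. The CCAAT box was searched by its own letters and the TATA box as TATAA. The Krüppel-like factor site was searched as CACCC, and the GATA factor site as GATAA. Sites of NF-E2 and of SREBP (TCACNCCAC, which can overlap the Krüppel-like site) were searched as well. The sequences run 5′ to 3′ along the gene.
Hba-x, chr11:32276490-32276599, plus strand: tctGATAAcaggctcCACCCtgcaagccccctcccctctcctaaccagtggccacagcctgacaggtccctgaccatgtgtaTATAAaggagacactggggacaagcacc
Hba-a1, chr11:32283562-32283671, plus strand: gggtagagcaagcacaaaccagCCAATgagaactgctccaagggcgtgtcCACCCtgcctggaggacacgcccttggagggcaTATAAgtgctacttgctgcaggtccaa
Hba-a2, chr11:32296382-32296491, plus strand: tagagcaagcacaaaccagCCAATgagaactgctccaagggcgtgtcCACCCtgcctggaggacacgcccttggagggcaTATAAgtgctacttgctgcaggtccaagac
Hbb-y, chr7:103853208-103853317, minus strand: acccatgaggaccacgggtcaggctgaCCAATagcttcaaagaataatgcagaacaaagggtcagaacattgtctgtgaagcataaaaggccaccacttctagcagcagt
Hbb-bs, chr7:103827929-103828038, minus strand: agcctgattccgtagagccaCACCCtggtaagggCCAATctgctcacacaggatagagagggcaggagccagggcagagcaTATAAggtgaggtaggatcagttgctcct
Hbb-bt, chr7:103813924-103814033, minus strand: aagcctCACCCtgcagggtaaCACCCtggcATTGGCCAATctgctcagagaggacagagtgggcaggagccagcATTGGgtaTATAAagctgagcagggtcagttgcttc
The alpha windows shared an unbroken run of 107 bases, whereas the longest run shared by the Hbb-bs and Hbb-bt windows was 14 bases, with 74.6% identity when aligned. CCAAT was found in 5 of the 6 windows and in 20.2% of 32851 promoter windows of the same length. TATAA was found in 5 of 6 against 10.9%, CACCC in 5 of 6 against 29.6%, and GATAA in 1 of 6 against 9.43%. The NF-E2 and SREBP motifs were in 0 of the 6 windows, and in 0.195% and 0.46% of all windows. These counts say only which letters lie in these windows.

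Transcript copies were also hard to tell apart. Reads were 50 bases long, and of the 50-base stretches of the Hba-a1 transcript 32.5% occurred in no other annotated transcript, against 13.1% for Hba-a2. The shares were 34.2% for Hbb-bs and 41.7% for Hbb-bt. For Hba-x, Hbb-y and Hbb-bh1 the share was 100%. The split of reads between the adult copies was therefore an estimate of the counting program, and sums over the copies were used beside the single genes. Hbb-b1 and Hbb-b2 had no transcript in the annotation used for this check, so how far they share reads with other copies was not tested.

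Total counts lay between 19826849 and 20061724 per sample, so depth was nearly equal. The smallest detectable level was taken as 3 counts, or 0.15 for each 1000000 counts of the unscaled library. CPM means counts for each 1000000 of the TMM-scaled library. Only the sums over gene lists and markers were taken without TMM scaling. Levels are compared between genes as FPKM, which divides by transcript length, and between groups as CPM. Abcg1, a sterol efflux gene, was the only gene past the threshold when condition alone was fitted, with a log2 fold change of 4.05 and an adjusted p of 0.00292 in edgeR's quasi-likelihood test.

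Hba-a1, of the adult alpha pair, was the most abundant member in every sample. In the order of the numbers 1 to 3, Hba-a1 was at 94006, 87493 and 109390 FPKM in controls and at 73315, 87538 and 104930 FPKM with cholesterol. Hba-a2 was at 52083, 49657 and 68730 FPKM in the controls and at 49106, 40014 and 56127 FPKM with cholesterol. For both genes sample 3 was the highest of its group and the groups overlapped. The means were 96963 ± 11244 and 88594 ± 15834 FPKM (SD, n = 3 each) for Hba-a1.

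The adult beta genes of this strain are Hbb-bs and Hbb-bt. Hbb-bs, the main adult beta gene and second to Hba-a1 in every sample, was at 77805, 73912 and 97580 FPKM in controls and at 68484, 71120 and 85876 FPKM with cholesterol. Hbb-bt, its minor partner, was at 29597, 29023 and 35574 FPKM in controls and at 26389, 27090 and 35328 FPKM with cholesterol. Here too sample 3 was highest in both groups and the ranges overlapped. Hbb-bs made up 70.8% to 73.3% of the summed adult beta FPKM in the 6 samples, a narrower range than the 59.9% to 68.6% that Hba-a1 made up of the summed adult alpha FPKM.

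The beta genes of the other haplotype were listed at low levels. Hbb-b1 was at 19.01, 18.81 and 29.72 FPKM in controls and at 19.42, 24.23 and 28.02 FPKM with cholesterol. Hbb-b2 was at 5.04, 6.83 and 9.12 FPKM in controls and at 5.24, 4.94 and 8.14 FPKM with cholesterol. For each 100000 FPKM of Hbb-bs there were 24.4 to 34.1 of Hbb-b1, and for each 100000 of Hbb-bt there were 17.0 to 25.6 of Hbb-b2, so these rows lay far under the genes that C57BL/6J carries. The part of reads from Hbb-bs and Hbb-bt in these values was not tested.

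The embryonic genes were low as well, and their samples were ordered otherwise. Hbb-bh1 was at 160.0, 71.9 and 55.9 FPKM in controls and at 100.4, 49.4 and 39.9 FPKM with cholesterol. Hba-x was at 22.4, 12.1 and 14.6 FPKM in controls and at 21.9, 11.8 and 11.3 FPKM with cholesterol. Sample 1 was the highest of its group for both genes, against sample 3 for the 6 adult members, and the groups overlapped. Hbb-y was at 5.55, 5.12 and 3.99 FPKM in controls and at 5.70, 3.52 and 2.94 FPKM with cholesterol, from 67, 61 and 48 counts and 68, 42 and 35 counts. Its highest sample was number 1 in both groups too, and the few counts limit what can be read from it. Hbb-bh1 made up 73.6% to 85.1% of the summed embryonic FPKM.

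**Figure D1:**
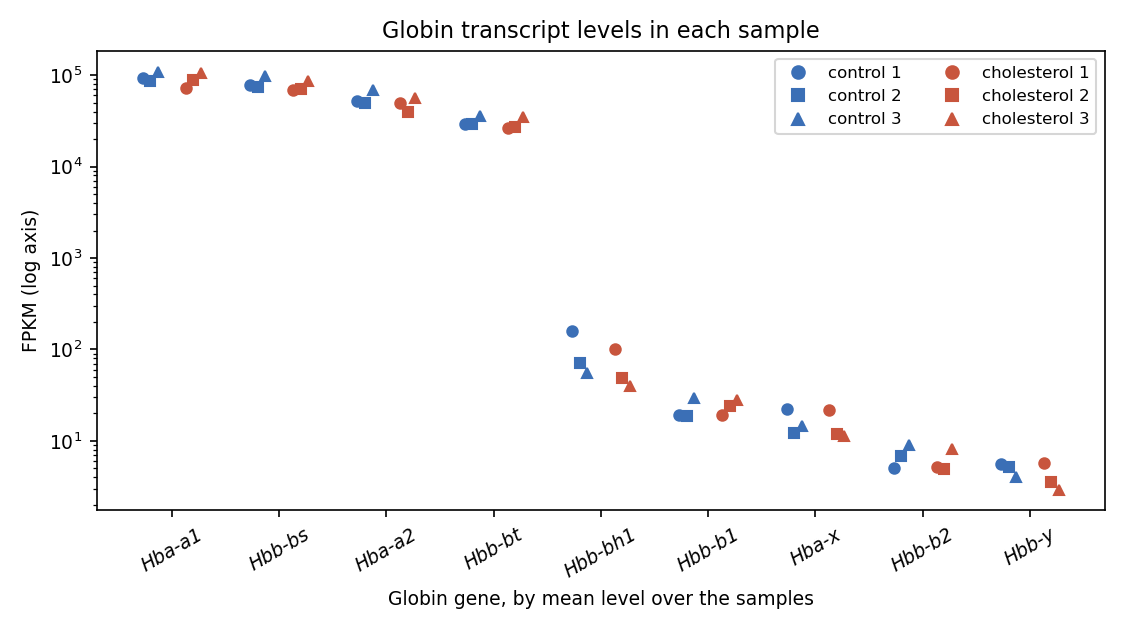
FPKM on a log axis for the 9 globin genes in each of the 6 samples (blue for control, red for cholesterol, with circles, squares and triangles for numbers 1, 2 and 3). The 4 adult genes of the strain lie at 26389 FPKM or more and the other 5 genes at 160 FPKM or less, and within each gene the blue and red points overlap.

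By mean level over the 6 samples the order was Hba-a1, Hbb-bs, Hba-a2, Hbb-bt, Hbb-bh1, Hbb-b1, Hba-x, Hbb-b2 and Hbb-y. The gap after Hbb-bt was by far the widest, with a mean 383 times that of Hbb-bh1. Hba-a1 and Hbb-bs overlapped in range, as did Hbb-bs and Hba-a2, although the order within each of these pairs was the same in 6 of 6 samples. Hbb-b1 and Hba-x, and likewise Hbb-b2 and Hbb-y, overlapped and kept their order in 4 of 6 samples, so neither pair differed beyond its spread.

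With condition alone as the term, none of the 9 globin genes passed the threshold. No gene of the table was lower (0%) and 1 was higher (0.00887%) at an adjusted p under 0.05 in edgeR. Also at an unadjusted p under 0.05 the count was 0 of 9, beside 2.63% of all genes tested, and DESeq2 and limma each called 0 of 9. The largest estimate was that of Hbb-bh1, at 57.4 ± 33.7 CPM in controls and 36.9 ± 18.5 CPM with cholesterol (SD, n = 3 each), a log2 fold change of -0.64 with a standard error of 0.50 and an adjusted p of 0.9998 in edgeR. Without control sample 1 it was -0.042, and without cholesterol sample 1 it was -1.13. The other 8 estimates lay between -0.30 for Hbb-y and 0.05 for Hbb-b1, with standard errors of 0.16 to 0.34. For all 9 genes the control and cholesterol samples overlapped, whereas the groups did not overlap for 7.99% of all genes tested, and for 4.28% with cholesterol the lower group.

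The samples deviated from their group means by number. Same-numbered samples correlated at 0.81, 0.51 and 0.87 across 10414 genes, whereas samples of different number correlated at 0.46 at most. The globins were therefore also compared within pairs. On the CPM scale, 7 of 9 globin genes were lower with cholesterol in all 3 pairs and 0 were higher in all 3, beside 20.1% and 19.9% of all genes tested. On the FPKM scale the count was 5 of 9, since Hba-a1 in pair 2 and Hbb-y in pair 1 were slightly higher there.

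Hbb-bh1 differed by -0.72, -0.55 and -0.52 on the log2 CPM scale in pairs 1, 2 and 3. All 3 pairs were of similar size, although the control level itself ranged from 34.4 to 96.0 CPM. Hba-a2 differed by -0.14, -0.32 and -0.33, and Hbb-bs by -0.24, -0.06 and -0.22. Hbb-bt differed by -0.22, -0.10 and -0.045. The copy Hba-a1 was the least even of the adult genes of this strain, with -0.41 in pair 1, -0.0039 in pair 2 and -0.095 in pair 3. Where Hba-a1 was furthest down Hba-a2 was least so, and their sum had an SD over the pairs of 0.10, against 0.21 for Hba-a1 and 0.11 for Hba-a2. Hba-x differed by -0.087, -0.046 and -0.40, and Hbb-y by -0.015, -0.54 and -0.48. Hbb-b1 and Hbb-b2 each had pairs of both signs.

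**Figure D2:**
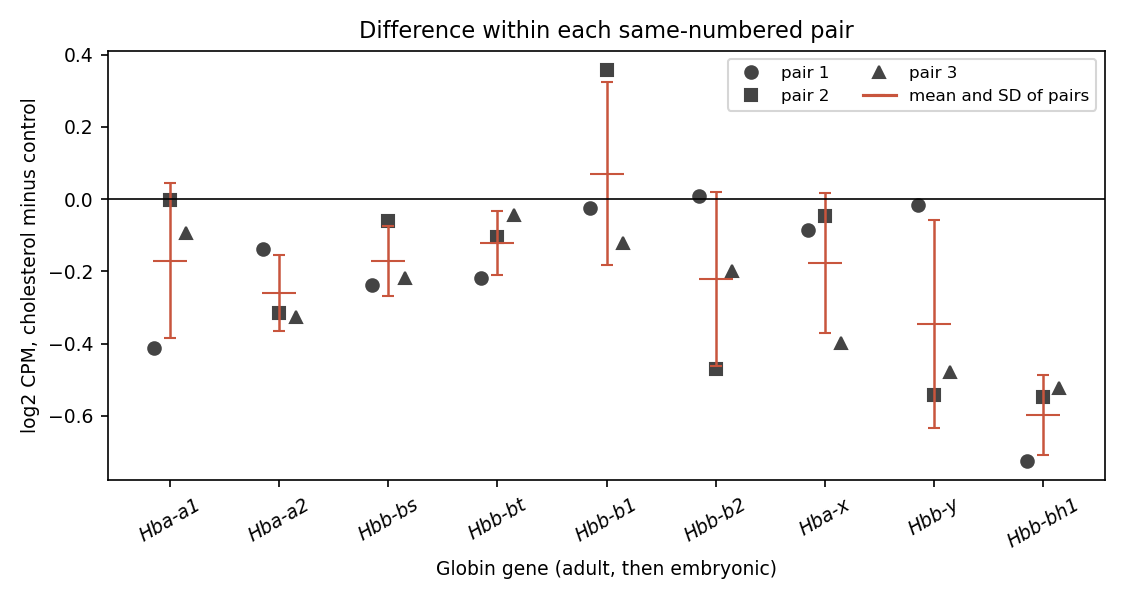
Difference in log2 CPM, cholesterol minus control, within each same-numbered pair for the 9 globin genes, with the mean and SD of the 3 pairs in red. Hbb-bh1 lies lowest, between -0.72 and -0.52, most other points lie between -0.55 and 0, and Hbb-b1 and Hbb-b2 cross 0.

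Fitting the replicate number as a block in edgeR called 3 of the 9 globin genes lower and 0 higher, beside 5.2% of all genes tested called lower, 1.65% called higher and 6.85% called in either direction. Hbb-bh1, the beta h1 chain of primitive red cells, fell by 34.6% (log2 fold change -0.61, standard error 0.06, adjusted p 2.04e-06). Hba-a2 fell by 16.5% (log2 fold change -0.26, standard error 0.04, adjusted p 9.56e-04) and Hbb-bs by 11.3% (log2 fold change -0.17, standard error 0.04, adjusted p 0.0223). Ordered by p in this fit, Hbb-bh1 stood 19th of 11277 genes and 18th among the lower ones. Hbb-bt had a log2 fold change of -0.12 with an adjusted p of 0.0965, and Hba-a1 one of -0.17 with an adjusted p of 0.333. The embryonic genes Hba-x and Hbb-y had estimates of -0.17 and -0.32 with adjusted p of 0.439 and 0.450, and Hbb-b1 and Hbb-b2 estimates of 0.06 and -0.22 with adjusted p of 0.798 and 0.540. With both samples numbered 1 left out, Hbb-bs no longer passed (log2 fold change -0.14, adjusted p 0.271), while Hba-a2 and Hbb-bh1 passed in each of the 3 fits that left out a number. With both samples numbered 3 left out, Hba-a1 and Hbb-bt passed as well.

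**Figure D3:**
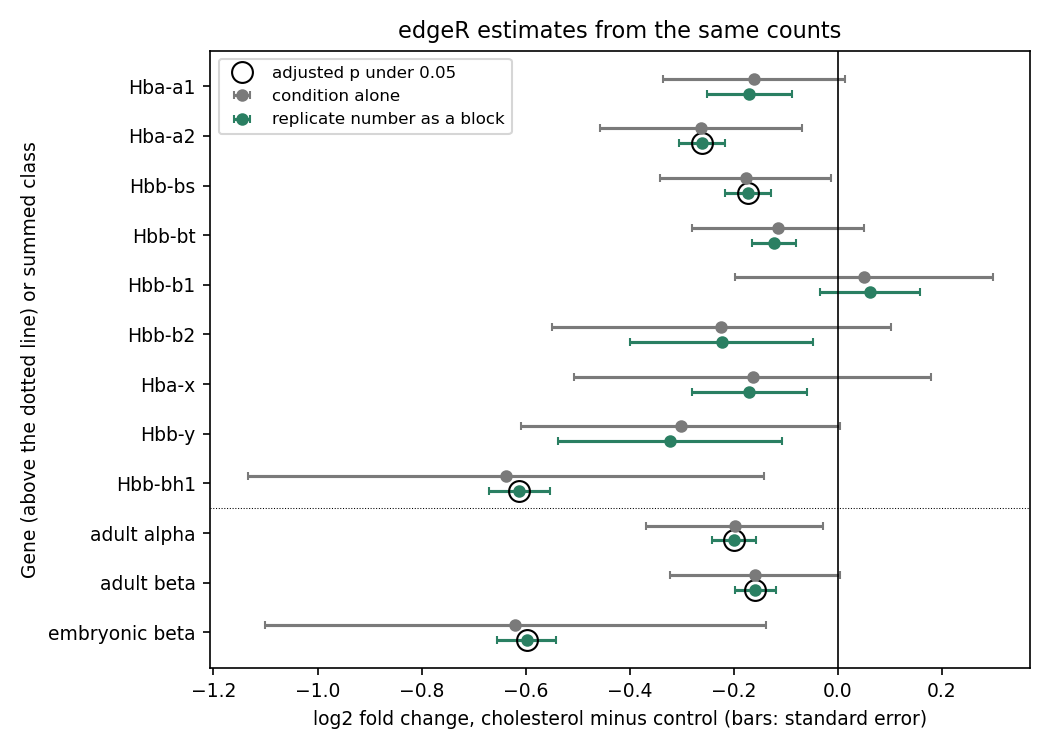
Log2 fold change, cholesterol minus control, with its standard error from edgeR, for each globin gene and summed class, fitted with condition alone (grey) and with a block for the replicate number (green). The estimates of both fits nearly coincide, the bars of the block are shorter, and circles mark the 3 genes and 3 classes with an adjusted p under 0.05, all from the block.

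Summing the copies removes the split of shared reads. Adult alpha transcripts (Hba-a1 and Hba-a2) summed to 80116, 72850 and 100035 CPM in controls and to 64734, 67508 and 88264 CPM with cholesterol. Adult beta transcripts (Hbb-bs, Hbb-bt, Hbb-b1 and Hbb-b2) summed to 67469, 62623 and 85659 CPM in controls and to 57446, 59565 and 76080 CPM with cholesterol. Embryonic beta transcripts (Hbb-y and Hbb-bh1) summed to 99.4, 44.8 and 36.9 CPM in controls and to 61.5, 30.7 and 25.7 CPM with cholesterol. Each class was lower with cholesterol in every pair, and in each class the 2 groups overlapped.

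With condition alone, edgeR called 0 of the 3 classes, DESeq2 called none and 0 were at an unadjusted p under 0.05, with log2 fold changes of -0.20 ± 0.17 for adult alpha, -0.16 ± 0.16 for adult beta and -0.62 ± 0.48 for embryonic beta (± standard error, adjusted p 0.9997 each). With the replicate block, adult alpha fell by 12.9% (log2 fold change -0.20, standard error 0.04, adjusted p 0.00582). Adult beta fell by 10.4% (log2 fold change -0.16, standard error 0.04, adjusted p 0.0211) and embryonic beta by 33.9% (log2 fold change -0.60, standard error 0.06, adjusted p 2.20e-06). Without both samples numbered 1, the adult classes no longer passed (adjusted p 0.239 for alpha and 0.345 for beta), and embryonic beta still did.

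Whether alpha and beta chains moved together was read from the ratio of their summed FPKM. The adult alpha to beta ratio was 1.36, 1.33 and 1.34 in controls and 1.29, 1.30 and 1.33 with cholesterol. The groups did not overlap, and the ratio was lower with cholesterol in 3 of 3 pairs, with means of 1.34 ± 0.01 and 1.31 ± 0.02 (SD, n = 3 each). The difference in the mean log2 ratio was -0.041 (exact permutation test, two-sided, p = 0.1, the smallest that 3 against 3 samples allow, and exact sign permutation over the 3 pairs p = 0.25, again the smallest possible). The pairs differed by -0.076, -0.037 and -0.0096, so the size was not even, and pair 3 hardly moved. FPKM divides each copy by its own length, so the split of reads between copies enters these ratios slightly. With summed counts, which are free of the split, the ratio was 1.19, 1.16 and 1.17 in controls and 1.13, 1.13 and 1.16 with cholesterol, with the same difference in the mean log2 ratio (-0.041, exact permutation p = 0.1).

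The embryonic to adult ratio varied more between numbers than the adult alpha to beta ratio. For each 100000 FPKM of adult globin there were 74.1, 37.1 and 23.9 FPKM of embryonic globin in controls and 58.9, 28.6 and 19.2 with cholesterol. Sample 1 was the highest and sample 3 the lowest of both groups, and the groups overlapped widely. Within pairs 1 to 3 the ratio with cholesterol differed from that of its control by -20.5%, -22.9% and -19.8%. The difference in the mean log2 ratio was -0.34, with p = 0.6 in the exact permutation test over samples and p = 0.25 in the exact sign permutation over the 3 pairs, both two-sided. Without control sample 1 the unpaired difference was 0.10 and without cholesterol sample 3 it was 0.024, so its sign rests on single samples when pairs are not kept.

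The beta and alpha sides of this ratio were also read apart. On the beta side there were 154, 74.8 and 45.0 FPKM of Hbb-y and Hbb-bh1 for each 100000 of adult beta in controls and 112, 53.8 and 35.3 with cholesterol, lower in 3 of 3 pairs. On the alpha side there were 15.3, 8.84 and 8.19 FPKM of Hba-x for each 100000 of adult alpha in controls and 17.9, 9.24 and 7.04 with cholesterol, lower in 1 of 3 pairs. The mean log2 differences were -0.43 on the beta side and 0.022 on the alpha side (exact permutation p = 0.6 and p = 0.9, and exact sign permutation p = 0.25 and p = 0.75), and whether the sides differ was not tested.

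Adult globins took a large part of every library. Their share of all counts was 14.6%, 13.8% and 17.9% in controls and 12.5%, 13.0% and 16.2% with cholesterol. It was lower with cholesterol in 3 of 3 pairs, with differences of -2.06, -0.81 and -1.68 percentage points, and the groups overlapped. The means were 15.4% ± 2.19 and 13.9% ± 2.02 (SD, n = 3 each, exact permutation p = 0.5, exact sign permutation p = 0.25, both two-sided). The difference of -1.52 percentage points became -0.27 without control sample 3 and -2.68 without cholesterol sample 3. A share this large lowers every other gene's share when it rises, but leaving the globins out of the scaling and library sizes changed none of the 3 calls made with the block. In bulk samples, fewer cells of a type and less RNA per cell cannot be told apart.

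**Figure D4:**
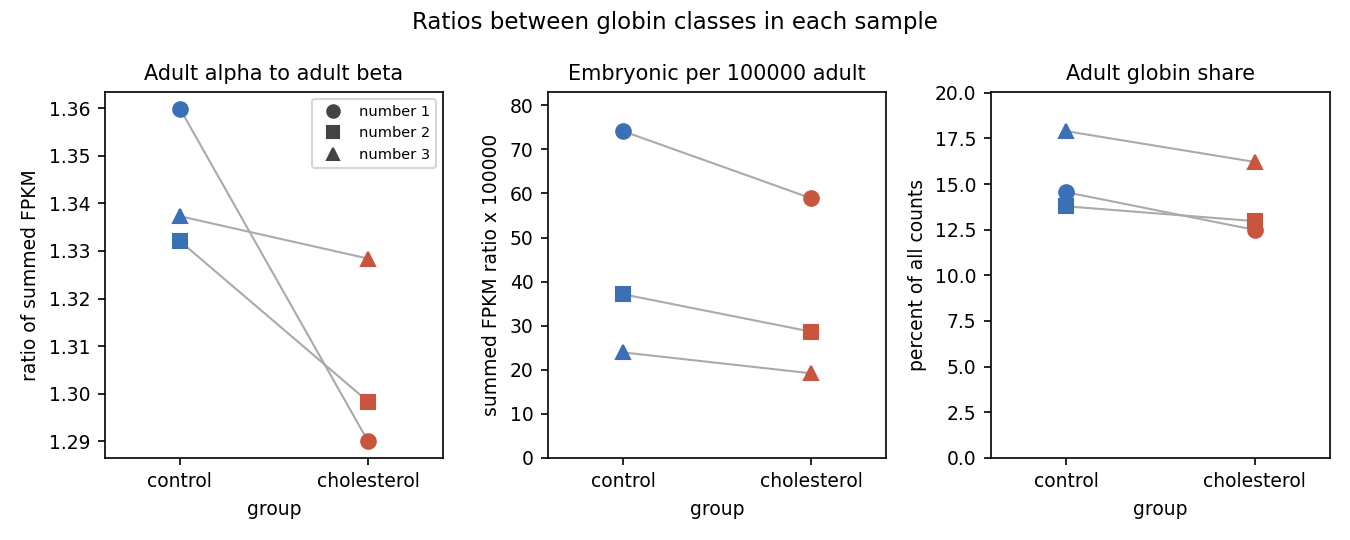
Adult alpha to beta ratio of summed FPKM (left, axis not from 0), embryonic FPKM for each 100000 adult FPKM (middle) and adult globin share of all counts in percent (right) in each sample, with grey lines joining samples of the same number. All 9 lines slope down from control to cholesterol, and the ratio on the left is the only panel whose groups do not overlap.

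Of 9 other globin family genes, 6 were in the table and 3 could be tested, and none was called by edgeR with or without the block or had an unadjusted p under 0.05. Hbq1b, a theta globin gene of the alpha cluster, was at 182, 194 and 250 FPKM in controls and at 164, 188 and 260 FPKM with cholesterol. Hbq1a, its copy, was at 4.95, 7.06 and 9.76 FPKM and at 5.90, 8.40 and 12.1 FPKM, and Hbb-bh2 was under 1.2 FPKM in every sample. Like the adult genes, all 3 were highest in sample 3 of each group. Hbq1a and Hbb-bh2 were higher with cholesterol in 3 of 3 pairs, with block estimates of 0.25 and 0.59 on the log2 scale and adjusted p of 0.409 and 0.470.

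The genes beside the alpha cluster include Nprl3, whose introns hold the alpha globin enhancers. Of 7 such neighbours, all tested, 0 were called with condition alone and 2 were called lower with the block, beside 5.2% of all genes tested, with a median log2 fold change of -0.17 in both fits against 0.0064 and 0.0059 over all genes tested. Snrnp25, of the minor spliceosome, fell in the block fit (74.2, 63.9 and 70.9 CPM in controls, 63.5, 55.2 and 63.6 CPM with cholesterol, log2 fold change -0.20, adjusted p 0.0197). Mpg, a DNA repair glycosylase, fell by nearly the same (68.3, 60.6 and 66.8 CPM against 57.5, 54.7 and 61.3 CPM, log2 fold change -0.17, adjusted p 0.0474). Rhbdf1 was low and did not pass in either fit (block log2 fold change -0.52, adjusted p 0.101).

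Factors that act on globin genes were called in both directions with the block. Of 25 regulators, all tested, 0 were called with condition alone, and with the block 2 were higher and 1 lower, 3 in all beside 6.85% of all genes tested, with medians of -0.0071 and -0.0074 on the log2 scale. NFE2 is the erythroid subunit of NF-E2, which binds the enhancers of both clusters. Nfe2 was at 409, 359 and 417 CPM in controls and at 352, 332 and 386 CPM with cholesterol, lower in 3 of 3 pairs with overlapping groups, and fell by 0.15 on the log2 scale in the block fit (adjusted p 0.0373). With condition alone its adjusted p was 0.9998. Gata1, the master factor of the lineage, was at 550, 512 and 526 CPM in controls and at 507, 499 and 512 CPM with cholesterol, with a block estimate of -0.065 and an adjusted p of 0.406.

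The 2 regulators called higher with the block were Bcl11a and Ldb1. Bcl11a, a repressor of embryonic globin genes, was at 100.1, 101.5 and 105 CPM in controls and at 112, 109 and 125 CPM with cholesterol, so the groups did not overlap (log2 fold change 0.17, adjusted p 0.0337 with the block and 0.9998 without). Ldb1 encodes a protein that joins enhancers to globin promoters, with a block estimate of 0.20 and an adjusted p of 0.00611. Gfi1b, a repressor, had a block estimate of 0.12 and an adjusted p of 0.191. Klf1, the activator of adult Hbb genes, had a block estimate of -0.044 and an adjusted p of 0.602.

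The sterol axis that the study links to globin genes was read in the same samples, and its 6 genes are not an independent choice, since the study named them. Srebf2 was at 418, 386 and 289 CPM in controls and at 148, 130 and 156 CPM with cholesterol, without overlap, at a log2 fold change of -1.33 with an adjusted p of 0.534 with condition alone and 0.133 with the block. With the block, Abcg1 was called higher and Nfe2 lower of the 6, beside 1.65% and 5.2% of all genes tested, and the 6 genes had a median log2 fold change of -0.55 with condition alone.

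Heme synthesis and maturation accompany globin expression. Of 15 genes of heme synthesis and its sensor, all tested, 0 were called with condition alone and 2 were lower with the block, beside 5.2% of all genes tested, with a median of -0.071 in the fit with condition alone. These were Slc25a37, the mitochondrial iron importer (3742, 3686 and 3762 CPM in controls, 3213, 3233 and 3468 CPM with cholesterol, block log2 fold change -0.18, adjusted p 0.00860), and Alas2, the first enzyme of erythroid heme synthesis (2177, 2133 and 2841 CPM against 1874, 2025 and 2593 CPM, block log2 fold change -0.14, adjusted p 0.0382). Fech and Hmox1 had adjusted p of 0.224 and 0.393 with the block. Of 25 genes of late maturation, 0 were called with condition alone, and 1 was higher and 0 lower with the block, beside 1.65% and 5.2% of all genes tested, with a median of 0.015. The 1 called was Tspo2, and Car2, Cat and Dmtn had block estimates of -0.089, -0.095 and -0.12 with adjusted p of 0.196, 0.205 and 0.0649.

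Of 15 genes of erythroid progenitors 14 were tested, 0 were called with condition alone and 6 were lower with the block, beside 5.2% of all genes tested, at a median of -0.24. Kit, the stem cell factor receptor, was at 2.58, 2.82 and 3.48 CPM in controls and at 1.97, 1.38 and 1.02 CPM with cholesterol (block log2 fold change -1.02, adjusted p 0.0255). Gata2 was at 6.22, 5.60 and 12.3 CPM in controls and at 2.37, 2.57 and 2.76 CPM with cholesterol (block log2 fold change -1.59, adjusted p 6.97e-05). Cd44 was at 82.0, 82.5 and 105 CPM against 74.4, 73.1 and 73.4 CPM (block log2 fold change -0.28, adjusted p 0.0400). These 3 genes are high in early cells and decline as globin genes rise in normal maturation. They were named for their small p, so their levels here are a description. Which cells of these bulk samples the transcripts came from was not tested.

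Markers of other cells moved with the groups and with the numbers. Over all genes tested, 5.2% were called lower with the block, the share against which the counts of markers stand. Of 9 granulocyte markers all 9 were lower with the block, and their summed level was 69.4 to 650 CPM in controls and 41.4 to 277 CPM with cholesterol. Of 9 macrophage markers 5 were lower with the block and all 9 were lower in every pair, as were 20.1% of all genes tested, at 29.7 to 286 CPM against 20.5 to 106 CPM. Both sums were lowest in sample 1 and highest in sample 3 of each group, the reverse of the order of the summed embryonic globins. The mast cell and basophil list was at 1.45 to 17.9 CPM against 0.504 to 2.82 CPM, with both of the 2 genes tested lower with the block and Tpsb2 at 0 in every sample. Of 8 megakaryocyte markers 1 was lower (66.9 to 82.4 CPM against 62.9 to 72.2 CPM), of 7 hepatocyte markers 0 were called (98.6 to 265 CPM against 68.8 to 230 CPM), and lymphocyte markers summed to at most 5.004 CPM with none tested. Erythroid markers summed to 18609 to 21183 CPM in controls and 17686 to 20617 CPM with cholesterol, with 2 of 6 (Alas2 and Tfrc) lower with the block. With condition alone, 0 markers of any of these lists were called. Their part in the globin differences was not tested.

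**Figure D5:**
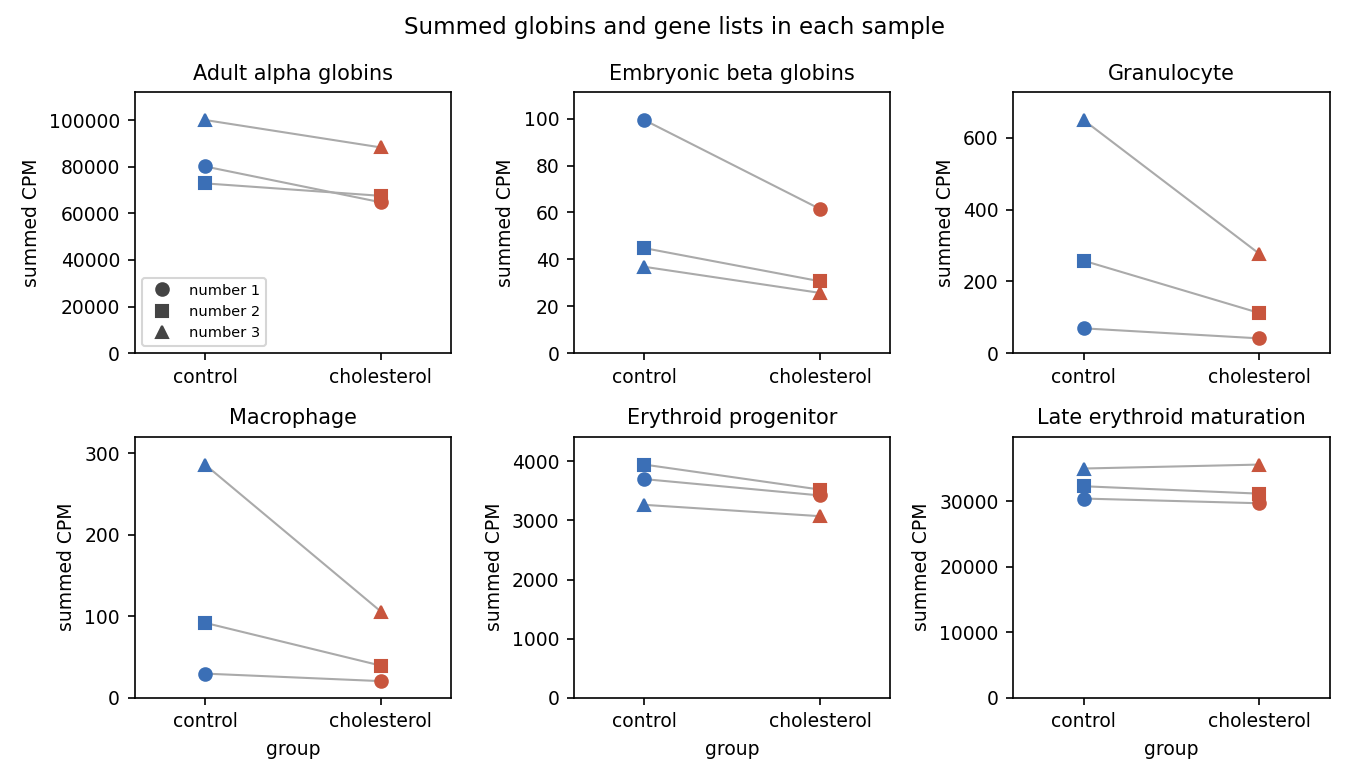
Summed CPM of adult alpha globins, embryonic beta globins and 4 gene lists in each sample, with grey lines joining samples of the same number and every axis from 0. The globin sums are TMM-scaled and the list sums are not. Adult alpha, granulocyte and macrophage sums are highest in number 3 and embryonic beta in number 1, and only the late erythroid list has a line that rises, in number 3. That rise depends on the scale, since TMM factors of 0.965 for control 3 and 0.987 for cholesterol 3 were not applied to it.

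The genes whose pattern over the 6 samples was most like that of the summed adult globins, among 7238 genes with a mean of at least 10 CPM, included Cntrob, Tmod1, Actg1 and Klf6, at a Pearson correlation of log2 CPM of 0.988 to 0.994. For the summed embryonic globins they were 2410002F23Rik, Treml2, Erich1, Ppp1r13b and Smarcb1, at 0.985 to 0.987. All points of such a correlation share the 6 libraries and their scaling. Klf6 (57.7, 55.4 and 77.0 CPM in controls, 44.4, 48.5 and 68.5 CPM with cholesterol) and Actg1 were also called lower with the block, with adjusted p of 0.00916 and 0.0476, and of the 5 embryonic-like genes none was.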

How the data were processed

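Poly(A)-selected RNA was read in single-end reads of 50 bases, with no strand marking stated. The authors deposited expected counts, estimated per gene without normalization, of which 27.9% to 29.5% in each sample were not whole. The authors also deposited length-normalized values whose unit they do not name, here taken as FPKM, since 90.8% of 8818 genes gave a length near that of their annotated transcripts. The submitters' processing notes name HISAT2 2.0.4, Bowtie2 2.2.5, RSEM 1.2.12 and DESeq2 1.4.5, with no roles, and GRCm38.p6.

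Expected counts were rounded, because the test had been planned for whole counts, and tested with edgeR 4.0.16 in R 4.3.3 (filterByExpr with at least 10 counts, TMM, robust quasi-likelihood, Benjamini-Hochberg over 11277 genes, threshold 0.05). Of 17463 symbols, 17322 matched RefSeq by symbol or synonym. Alternatives were DESeq2 1.42.0, limma 3.58.1 on log2(FPKM + 1) and log2(FPKM + 0.1), other filters and scalings, and left-out samples. Single values used exact permutation tests (scipy 1.17.1), in which 3 against 3 samples cannot go below 0.1 and 3 pairs not below 0.25. Both edgeR fits were run on simulated counts that held no effect of the replicate number, so the block was not tried on paired data. DESeq2, limma and the permutation tests were not simulated.

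The labels number the samples 1 to 3 in either group, and every same-numbered pair correlated above 0.1 (0.81, 0.51 and 0.87), so numbers were taken as pairs, although no source used here says what they stand for. Members and lists were chosen with earlier results of these data known. Named were all members, from each list but the cell type markers the 3 genes of smallest p, Srebf2, Nfe2 and Gata1, and the 5 genes most like each globin sum. Klf1, Ldb1, Alas2, Tfrc, Tspo2, Nprl3 and Tpsb2 are named beyond this rule, after a look at their values. Some genes that this rule names are not reported here.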

Additional observations from a re-analysis of the deposited data

How the results depend on the processing

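Replicate block. With condition alone, 1 gene was higher and 0 lower, and 0 globin genes and 0 summed classes were called. The block takes the numbers as pairs, which no source states and which was inferred from these same samples. Cholesterol sample 2 correlated at 0.51 with control sample 2 and at 0.46 with control sample 1. The block gave 186 higher and 586 lower genes, with 3 globin genes and 3 classes lower, all called only there. It kept each of the 9 signs. For the 3 ratio and share results it gave the same means as the unpaired comparison (-0.041, -0.34 and -1.52, each with p = 0.25 in the exact sign permutation). Leaving out both samples of number 1, 2 or 3 under the block gave 118, 67 and 210 higher genes, 703, 229 and 516 lower genes, 2, 3 and 5 globin genes, and 1, 3 and 3 classes lower. Hbb-b1 turned to -0.076 without number 2. With the block and scaling without the globins, chosen after seeing the data, 178 genes were higher and 567 lower, again with 3 globin genes and 3 classes.

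Other settings with condition alone. DESeq2 called 2 genes higher and 25 lower. Leaving out single samples gave 1 higher and 0 to 7 lower genes (7 without control sample 3), and log2 fold changes of -0.53 to 0.14 for Hba-x, -0.096 to 0.33 for Hbb-b1, -0.50 to 0.040 for Hbb-b2 and -0.28 to 0.0068 for Hbb-bt, so each of these changed sign. The others kept theirs, at -0.32 to -0.033 for Hba-a1, -0.40 to -0.080 for Hba-a2, -0.30 to -0.022 for Hbb-bs, -0.62 to -0.13 for Hbb-y and -1.13 to -0.042 for Hbb-bh1. The classes ran from -0.35 to -0.056 (adult alpha), -0.29 to -0.014 (adult beta) and -1.10 to -0.052 (embryonic beta). The values nearest 0 came without control sample 3 for Hba-a2, Hbb-bs and both adult classes, and without control sample 1 for Hbb-bh1 and embryonic beta. The embryonic to adult difference ran from -0.78 to 0.097, and its alpha side alone was 0.022. The adult share difference ran from -2.68 to -0.27 percentage points. No globin gene was called under any of these, nor under other filters, scaling without the globins or limma, and the causes were not tested. Depth limits Hbb-y and Hbb-b2, with at most 112 counts per sample.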
